A study of Sus scrofa with 8 samples.

Results

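MicroRNAs that are known for lipid and energy metabolism were examined in the livers of young and old sows. The set was chosen by name from the deposited miRNA table: miR-33a, miR-33b, miR-103, miR-107, miR-148a, miR-148b, miR-152, miR-378 and miR-27b, with or without an arm suffix, gave 14 of the 888 names. Both arms were listed for miR-33a, miR-33b, miR-148a, miR-148b, miR-152 and miR-27b, miR-107 and miR-378 were listed under 1 name each, and no row was named miR-103 alone. The animals were 4 healthy sows of the Yana breed, which is native to China and which the study also spells Yanan, with no close kinship among them. The 2 young sows were 180 days old and the 2 old sows were 8 years old, no other treatment or allele distinguishes them, and these ages stand in the study for puberty and for the end of reproductive life. The young sows had borne no litter and the old ones had bred for years, so age and reproductive history cannot be told apart. Each sow gave 1 small RNA library and 1 library of rRNA-depleted RNA from liver, so n = 2 per age throughout. The limma test used below draws the variance of each name toward that of all tested names. Its standard errors, intervals and p-values therefore do not measure the spread of that name between these few animals alone.

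A microRNA is cut from a hairpin precursor whose 5p and 3p arms can each be loaded into the silencing complex, and it lowers the output of mRNAs that pair with its seed near the 5′ end. miRNAs with the same seed form a family with shared targets. miR-33a and miR-33b are known to lie in introns of the sterol regulator genes SREBF2 and SREBF1 and to repress cholesterol efflux and fatty acid oxidation genes. miR-148a, miR-148b and miR-152 share a seed, and miR-148a is an abundant liver miRNA. miR-103 and miR-107 share a seed, lie in pantothenate kinase genes and are known to affect insulin sensitivity. miR-378 is encoded within PPARGC1B, a coactivator gene of mitochondrial metabolism, and miR-27b is processed with miR-23b and miR-24 from a common cluster and is known to target lipid regulators.

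The miRNA values were whole reads multiplied by 1 step per library, and the reads over all names numbered 11661943 to 14139461 per library. A few names repeated the reads of another name, and none of the 14 was among them. With these repeats left out the name counts summed to 8715516 to 10438212 reads, of which the 14 names held 3.73% (95% Wilson interval 3.72 to 3.74) in young 1, 2.64% (2.63 to 2.65) in young 2, 3.08% (3.06 to 3.09) in old 1 and 1.71% (1.71 to 1.72) in old 2. A read may be counted under more than one name, so these are shares of the name counts and not of the sequenced reads, and such intervals cover counting error only. The deposited scale did not bring the libraries to a common level: relative to the median of all names, young 1 lay 0.21 high and young 2 lay 0.37 low on the log2 scale, while old 1 and old 2 lay 0.11 and 0.05 high. The median difference of all 867 tested names, old minus young, was therefore 0.18 on the log2 scale as deposited and 0.04 after the libraries were divided by median-of-ratios factors. Values after that division are called scaled values below and are given beside the deposited ones, and changes should be read against these medians.

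The livers expressed hepatocyte markers in every library. The summed level of 7 hepatocyte mRNAs was 87180 and 96371 CPM (counts scaled to library depth) in young 1 and young 2. In old 1 and old 2 it was 62457 and 66613 CPM, with 2 of the 7 lower in both old livers. The deposited CPM of all mRNAs also had no common sum: it was 408898 and 428910 in young 1 and young 2. In old 1 and old 2 it was lower, at 365330 and 346173. The part of this scale in the marker sums was not tested. The hepatocyte miRNA miR-122 ranged from 3302660 to 4022050 scaled values with overlapping groups. Of 4 macrophage mRNAs, 3 were higher in both old livers, with sums of 204 and 226 CPM in the young and 290 and 284 CPM in the old, and 5 stellate cell and fibroblast mRNAs summed to 9.64 to 36.7 CPM with none apart between the groups. The 2 endothelial mRNAs summed to 18.8 to 26.1 CPM, and 1 of them was higher in both old livers. The 5 skeletal muscle mRNAs summed to at most 2.73 CPM in any library, whereas 8 muscle miRNA names summed to 2082 and 1718 scaled values in the young and 5029 and 9753 in the old, with 4 of the 8 higher in both old livers. Over all tested mRNAs, 25% were lower and 24.4% higher in both old livers, and 23.5% of all scaled miRNA names were higher. The 2 of 7 hepatocyte mRNAs lie near the first share, and all of these marker counts rest on few genes. In whole tissue, fewer cells of a type and less RNA per cell cannot be told apart.

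None of the 14 names differed between ages past the threshold of limma, an adjusted p under 0.05 with a log2 difference beyond 1. The same held for all names (0% called of 867 tested, with 72 higher and 31 lower in the old livers at an unadjusted p under 0.05 as deposited and 70 and 58 on scaled values). The edgeR exact test called 3% of the names, 15 higher and 11 lower, and again none of the 14. By level alone, 5 of the 14 names were lower in both old livers than in both young as deposited, against 16.1% of all tested names, and none was higher in both, against 28.3%. On scaled values 8 of the 14 were lower in both, against 27.1% of all names, and none was higher, against 23.5%. These 8 were miR-152-3p and -5p, miR-148b-3p, miR-148a-5p, miR-27b-3p and -5p and the 3p arms of miR-33a and miR-33b, so several are arms of 1 hairpin or share a family and do not count as independent.

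**Figure D1:**
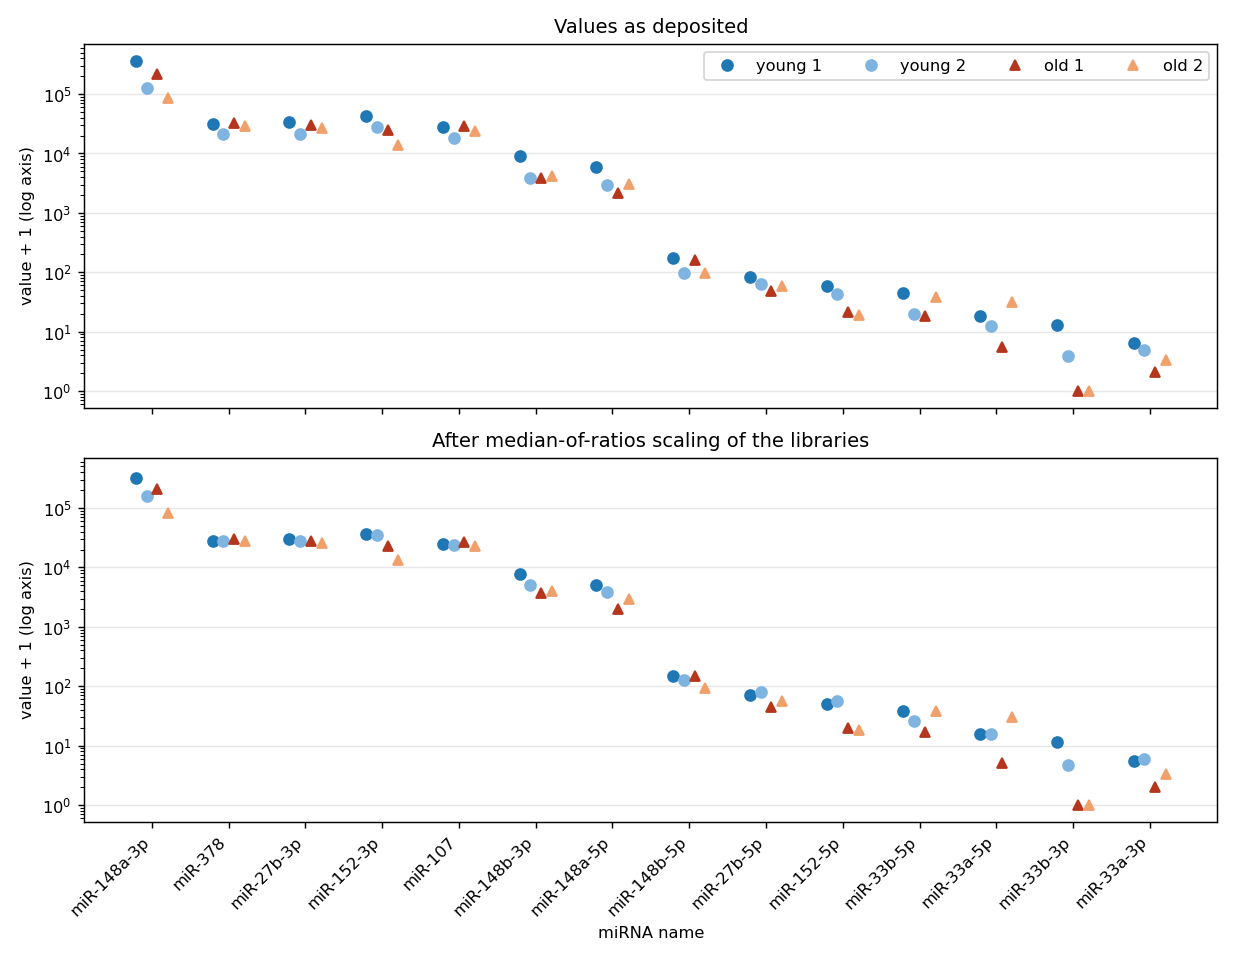
Value plus 1 of each of the 14 miRNA names (log axis) in 2 young (circles) and 2 old (triangles) livers, as deposited (top) and after median-of-ratios scaling (bottom), 1 point per library. After scaling, miR-378, miR-27b-3p and miR-107 sit at nearly the same level in all 4 libraries, while miR-152-3p and miR-152-5p are lower in both old libraries on either scale.

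The 14 names differed widely in level. miR-148a-3p stood apart at the top with a mean of 191781 scaled values over the 4 libraries. Then came miR-378 with 28390, miR-27b-3p with 27735, miR-152-3p with 27067 and miR-107 with 24554, and each of these overlapped its neighbour in the order. miR-148b-3p with 5120 and miR-148a-5p with 3464 formed the next level, apart from miR-107 above and overlapping each other. The remaining 7 names had means of 129 or less, and 5 of them averaged under 50 reads, so that their differences rest on few reads.

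The miR-148 and miR-152 family held the clearest age-ordered names. miR-152-3p gave 31730 reads in young 1, 28434 in young 2, 21562 in old 1 and 11829 in old 2. These are deposited values of 42328, 27359, 24517 and 14069, or scaled values of 36527, 35456, 22695 and 13590. Both young livers were above both old livers on each scale, and after scaling the young pair nearly coincided while the old pair was further apart. The scaled mean was 35992 ± 757 (SD, n = 2) in the young and 18142 ± 6438 (SD, n = 2) in the old. The limma log2 difference was -1.04 ± 0.44 (SE) on scaled values and -0.87 ± 0.63 as deposited, and neither passed (adjusted p = 0.383 and 0.633). The 95% interval of the scaled ratio of old to young ran from 0.216 to 1.10.

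The other arm of the same hairpin, miR-152-5p, was rare and showed the same order. It had 43 and 44 reads in young livers against 18 and 15 in the old, or scaled values of 49.5, 54.9, 18.9 and 17.2. The replicates of each age were close together, and the groups did not overlap on either scale. The log2 difference was -1.48 ± 0.37 on scaled values (limma adjusted p = 0.257) and -1.32 ± 0.59 as deposited (adjusted p = 0.437). The 5p arm was 0.135% (95% Wilson interval 0.1005 to 0.182) and 0.155% (0.115 to 0.207) of the miR-152 reads in young 1 and young 2. In old 1 and old 2 it was 0.0834% (0.0528 to 0.132) and 0.127% (0.0768 to 0.209). This share was lower in both old livers (exact permutation p = 0.333, the smallest this design allows), although the counting intervals of the ages overlapped.

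miR-148a-3p, the most abundant of the 14, varied too much between animals of 1 age for an order to show. It gave 274997 and 130256 reads in young livers against 194801 and 72326 in the old. Its scaled values were 316572, 162425, 205036 and 83093, so the lower young liver was below the higher old liver. The log2 difference was -0.80 ± 0.65 on scaled values (limma adjusted p = 0.595). Leaving out young 1 or old 2 turned the deposited difference to 0.14 or 0.05, while on scaled values it was -0.35 or -0.14. Its arm partner miR-148a-5p was more ordered, with 4353 and 3119 reads in the young and 1883 and 2587 in the old. As scaled values these were 5011, 3889, 1982 and 2972, all lower in the old, although the deposited values 5807, 3001, 2141 and 3077 overlapped. Its log2 difference on scaled values was -0.86 ± 0.43 (limma adjusted p = 0.431).

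miR-148b-3p followed the order of miR-148a-5p. It had 6766, 3983, 3464 and 3549 reads in young 1, young 2, old 1 and old 2. On scaled values, 7789 and 4967 in the young lay above 3646 and 4077 in the old, whereas as deposited young 2 (3832) lay just below both old livers (3939 and 4221). The log2 difference was -0.69 ± 0.43 scaled (limma adjusted p = 0.488). Without young 1 it was -0.40 scaled and 0.089 as deposited, and without young 2 it was -1.06 scaled. miR-148b-5p, at 81 to 141 reads, overlapped between the ages on both scales.

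No age order was seen in the make-up of the family. miR-152-3p was present at 0.115 and 0.218 reads per read of miR-148a-3p in young livers against 0.111 and 0.164 in the old. Summed over miR-148a-3p, miR-148b-3p and miR-152-3p, the family reached scaled values of 360888, 202847, 231377 and 100760, which overlap. miR-148a-3p dominates this sum, and its deposited profile over the 4 libraries was nearest, among 262 known names with a mean of at least 100, to that of miR-451, a red blood cell miRNA (distance 0.36 on the log2 scale), then to miR-19b-3p and miR-20a. The summed scaled value of 4 erythroid miRNA names was 46036 and 30745 in young livers against 30724 and 17949 in the old, none of them apart between the ages. The 3 erythroid mRNAs found summed to 622, 429, 306 and 405 CPM, with 2 of them lower in both old livers, against 25% of all tested mRNAs. The part of blood cells in the miR-148a-3p values was not tested.

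**Figure D2:**
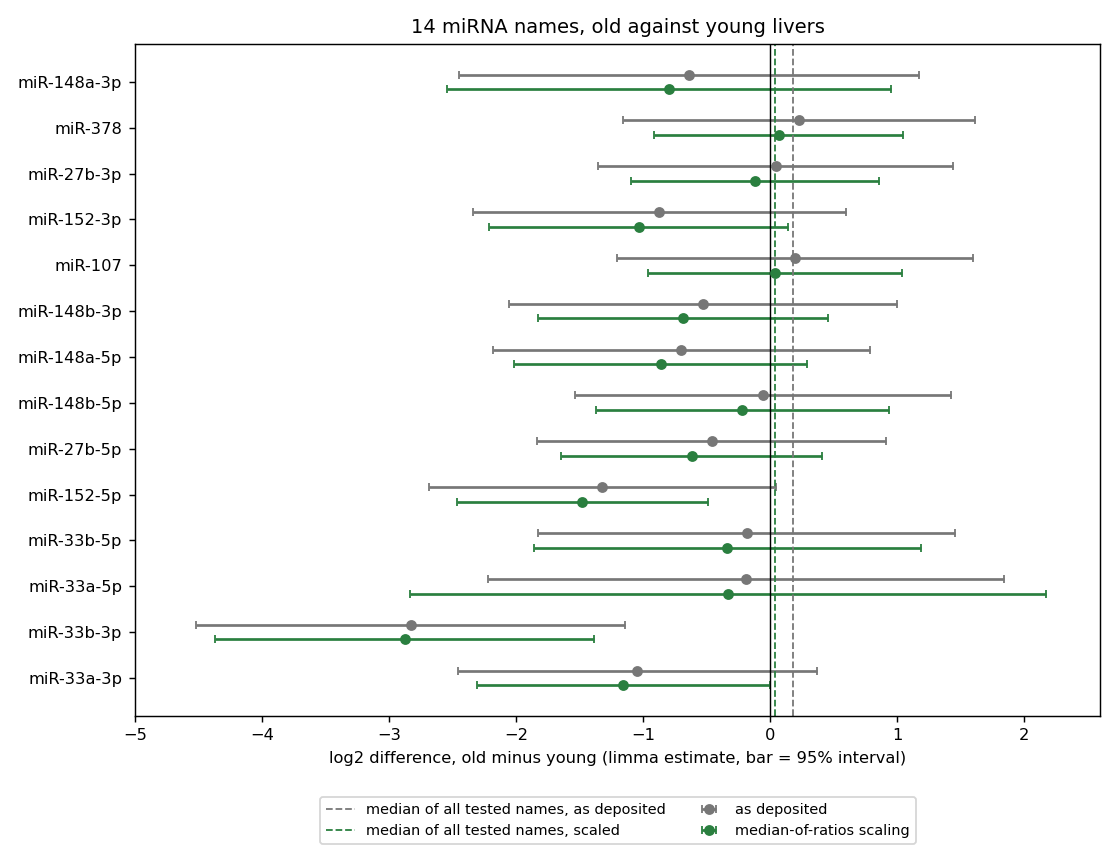
The limma log2 difference, old minus young, of each of the 14 names with its 95% interval, as deposited (grey) and on scaled values (green), with dashed lines at the median of all 867 tested names on each scale. The points of miR-152-3p, both miR-148a arms and miR-148b-3p lie left of 0 on both scales with intervals that include 0, and miR-378, miR-107 and miR-27b-3p lie close to the medians. The scaled intervals of the rare miR-152-5p, miR-33a-3p and miR-33b-3p lie below 0, and so does the deposited interval of miR-33b-3p. The intervals are not adjusted for the number of names. The value of miR-33b-3p rests on 9 reads or fewer per library.

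Against the 3 other members of like abundance, the order of miR-152-3p needed no scaling between libraries. It was present at 1.33 and 1.27 reads per read of miR-378 in young livers against 0.741 and 0.494 in the old. Relative to miR-107 these ratios were 1.49 and 1.49 in the young against 0.835 and 0.60 in the old. Relative to miR-27b-3p they were 1.23 and 1.27 against 0.823 and 0.531. Each ratio was lower in both old livers. With 2 animals against 2 there are only 6 splits, so the two-sided exact permutation p of each was 0.333. That is the smallest this design allows, and no single ratio can reach 0.05. The 3 reference names had nearly the same scaled level in all 4 libraries, so these ratios do not count as independent. Small changes also parted the ages: miR-27b-3p per miR-378 was 1.09 and 0.999 against 0.901 and 0.931. For miR-107 per miR-27b-3p it was 0.823 and 0.854 against 0.985 and 0.884, while miR-107 per miR-378 overlapped.

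miR-378, which is linked to mitochondrial metabolism and fatty acid use, had nearly the same level in the 4 livers once the libraries were scaled. It gave 23832, 22457, 29089 and 23941 reads, and its scaled values were 27435 and 28003 in the young and 30617 and 27505 in the old. The highest exceeded the lowest 1.12 times, and the ages overlapped. Among the 150 tested names with a mean of at least 1000 reads, whose median range over the 4 scaled libraries was 1.02 on the log2 scale, miR-378 had a range of 0.16, miR-27b-3p 0.22 and miR-107 0.26, and 0.667%, 1.33% and 3.33% of those names had a smaller range. The limma log2 difference of miR-378 was 0.07 ± 0.37 scaled and 0.23 ± 0.60 as deposited (adjusted p = 0.960 and 0.913), which in both cases is close to the median of all names. The 95% interval of the scaled ratio ran from 0.531 to 2.07, and ratios within that interval were not resolved with these 4 animals.

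The opposite arm, listed as miR-378a-5p and outside the rule, had 227, 175, 348 and 283 reads. Its scaled values were 261 and 218 in the young and 366 and 325 in the old, both old livers above both young. As a share of the reads of both arms it was 0.944% (95% Wilson interval 0.829 to 1.07) and 0.773% (0.667 to 0.896) in young 1 and young 2 and 1.18% (1.06 to 1.31) and 1.17% (1.04 to 1.31) in old 1 and old 2. The shares did not overlap between the ages, although the counting interval of young 1 overlapped those of both old livers. Their exact permutation p was 0.333, the smallest possible here, and the limma adjusted p of miR-378a-5p itself was 0.539 on scaled values. Other names of the miR-378 series, such as miR-378b-3p at 443 to 649 reads, miR-378c at 160 to 309, miR-378i at 279 to 389, and miR-378d, miR-378f and miR-378g at 15 to 83, overlapped between the ages. miR-378h with 1, 0, 2 and 1 reads, miR-378e with 0, 1, 4 and 3 and miR-378b with 3, 3, 2 and 3 were at the limit of detection. At these few reads miR-378e was higher in both old livers on both scales. miR-378b was lower in both on scaled values only, and miR-378h overlapped. Names this similar can share reads, so their levels are uncertain.

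miR-107 tracked miR-378 closely. It gave 21300, 19147, 25816 and 19714 reads, with scaled values of 24520 and 23876 in the young and 27172 and 22649 in the old. The ages overlapped, and miR-107 stood at 0.894, 0.853, 0.887 and 0.823 reads per read of miR-378 in young 1, young 2, old 1 and old 2. The limma log2 difference was 0.04 ± 0.37 scaled (adjusted p = 0.977), with a 95% interval of the ratio from 0.513 to 2.05.

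Its seed mate was listed as miR-103a-3p, a name outside the rule, and RefSeq lists MIR103A1 and MIR103A2 as other names of the pig miR-103 genes. It had 134253, 131958, 116331 and 103274 reads, and scaled values of 154550 and 164547 in the young and 122443 and 118648 in the old. Both old livers were below both young after scaling, with a log2 difference of -0.40 ± 0.37 (limma adjusted p = 0.620). Within a library there were 6.30 and 6.89 reads of miR-103a-3p per read of miR-107 in young livers against 4.51 and 5.24 in the old, again without overlap and with an exact permutation p of 0.333. Summed, the pair reached 179070 and 188423 scaled values in the young and 149615 and 141297 in the old. The other arm, miR-103a-2-5p, had 4, 7, 3 and 10 reads and overlapped. The mature sequences of miR-103 and miR-107 are nearly alike, and how the authors' counting divided such reads is not given in the sources used here.

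**Figure D3:**
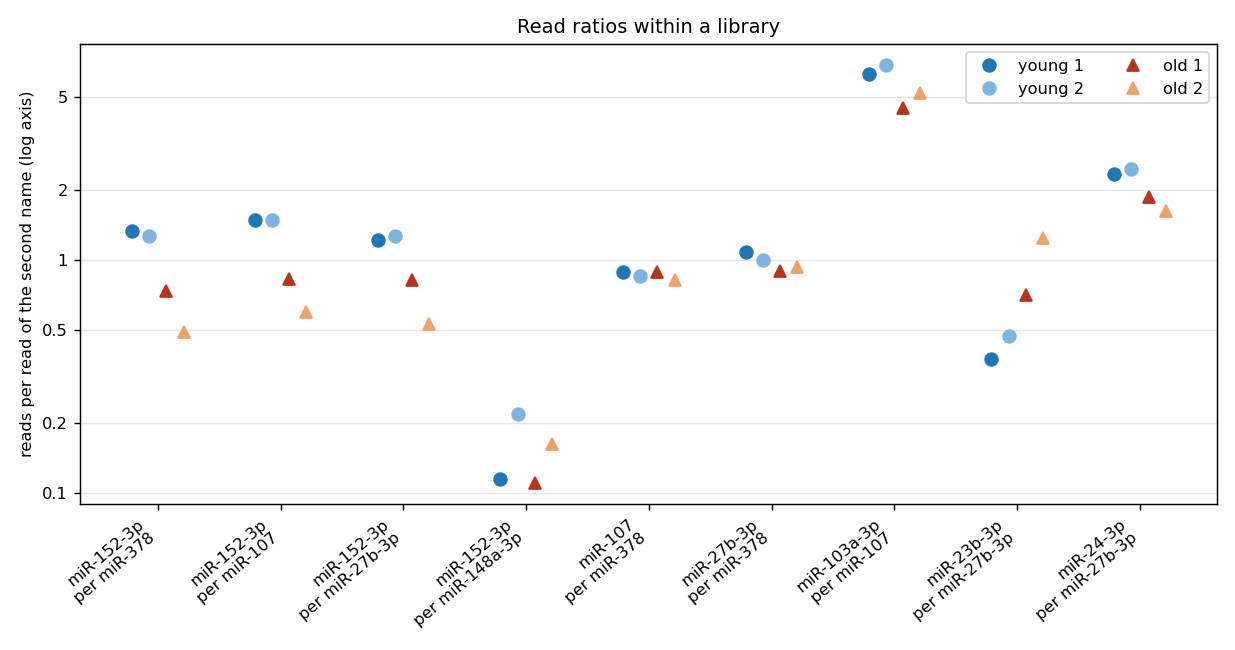
Reads of the first name per read of the second (log axis) in each of the 2 young (circles) and 2 old (triangles) livers, 1 point per library. The ratio of miR-152-3p to miR-378, miR-107 and miR-27b-3p is lower in both old livers, its ratio to miR-148a-3p overlaps, and the cluster mates miR-23b-3p and miR-24-3p lie on opposite sides relative to miR-27b-3p.

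miR-27b-3p was the third name of even level. It gave 25871, 22431, 26196 and 22295 reads, and its scaled values of 29782 and 27971 in the young lay just above 27572 and 25614 in the old. As deposited, young 2 at 21583 was the lowest and the groups overlapped. The limma log2 difference was -0.12 ± 0.37 scaled and 0.04 ± 0.60 as deposited (adjusted p = 0.905 and 0.988), so its sign changed with the scaling. Its seed mate miR-27a had 1645, 1222, 1643 and 1453 reads with overlapping scaled values, and miR-27b-3p made up 93.9% to 94.8% of the reads of both. The rare arm miR-27b-5p had 62 and 64 reads in the young and 41 and 48 in the old, lower in both old livers on either scale (scaled log2 difference -0.62 ± 0.39, limma adjusted p = 0.488).

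Several abundant names of the clusters that hold miR-27 did not keep its even level. In the RefSeq annotation of Sscrofa11.1, MIR23B, MIR27B and MIR24-2 lie within 10 kb of each other inside C10H9orf3, and MIR23A, MIR27A and MIR24-1 lie together outside any host gene. miR-23b-3p had 9723 and 10658 reads in young livers against 18576 and 27784 in the old. That is 0.376 and 0.475 reads per read of miR-27b-3p in the young against 0.709 and 1.25 in the old. miR-24-3p, which both clusters encode, went the other way, with 60811 and 55282 reads in the young and 48732 and 36170 in the old, or 2.35 and 2.46 per read of miR-27b-3p against 1.86 and 1.62.

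The second cluster showed the same order. miR-23a stood at 3.56 and 4.54 reads per read of miR-27a in young livers against 6.92 and 9.36 in the old. On scaled values the log2 differences were 1.03 ± 0.44 for miR-23b-3p, 1.002 ± 0.39 for miR-23a and -0.59 ± 0.38 for miR-24-3p, none of them past the threshold (limma adjusted p = 0.383, 0.353 and 0.50). The rare partner arms were mixed: miR-23b-5p (91, 64, 62 and 132 reads) and miR-27a-5p (50, 42, 39 and 67) overlapped between the ages on both scales. miR-24-1-5p (38, 34, 24 and 14) was lower in both old livers on both scales. miR-23a-5p and miR-24-2-5p had 15 reads or fewer per library. Of these, miR-23a-5p (5, 3, 8 and 7) was higher in both old livers on both scales. miR-24-2-5p (15, 8, 9 and 7) was lower in both on scaled values only. Each of the 3 ratios was without overlap between the ages, with an exact permutation p of 0.333. miR-23a and miR-23b are nearly alike in sequence and may share reads, and miR-24-3p cannot be assigned to either cluster.

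The miR-33 names were rare in these livers. miR-33a-5p had 13, 12, 4 and 26 reads, and the old livers held both its lowest and its highest value. miR-33b-5p had 33, 20, 15 and 32 reads, overlapping as well. Their summed scaled value was 53.0, 39.9, 19.998 and 66.6, and the old livers held both the lowest and the highest sum. The 3p arms were rarer still. miR-33a-3p had 4 and 4 reads in the young and 1 and 2 in the old, and miR-33b-3p had 9 and 3 in the young and 0 in both old livers, a count that allows up to 3 reads in each.

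Because 3 of the 4 counts of miR-33b-3p are at or under that limit, the size of its difference is not read as a fold. Its limma estimate of -2.83 (adjusted p = 0.263) depends on the pseudocount and ranged from -5.91 to -0.75 over the settings tried. It became the 1 name of the 14 to pass when old 1 or old 2 was left out on deposited values (adjusted p = 0.033 and 0.032), and the same omissions on scaled values left it above the threshold (adjusted p = 0.207 and 0.241).

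The nearest profiles to miR-27b-3p, miR-378 and miR-107, by the same distance over the 4 deposited values and among the same 262 names, were miR-30d (distance 0.05), miR-378i (0.08) and miR-378i again (0.07). For miR-27b-3p the next were miR-1307-3p and miR-26a at 0.19 each. For miR-378 they were miR-885-3p (0.16) and miR-497-5p (0.17), and for miR-107 they were miR-378b-3p (0.16) and miR-532-5p (0.18). The nearest to miR-33b-5p were miR-1296-5p, miR-7134-3p and miR-1247-5p at 0.31 to 0.44. All of these share the libraries' own scale, with young 2 low, and are descriptions of 4 points.

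The mRNA libraries were used to set the host genes beside their miRNAs. Of 9 host genes 7 could be matched by symbol, and none was called by limma (0% of 16898 tested mRNAs, with 1145 higher and 1509 lower at an unadjusted p under 0.05 as deposited, a balance that turned to 1495 and 955 with TMM factors) or by the edgeR exact test, which called 3.16% of all mRNAs. COPZ2 (ENSSSCG00000017526), the coatomer subunit gene that holds miR-152, had 13.7 and 23.1 CPM in young livers against 1.54 and 16.1 CPM in the old. Old 2 lay within the young values, so the groups overlapped, whereas miR-152-3p was lowest in old 2. The log2 difference of COPZ2 on the log2(CPM + 1) scale was -1.51 ± 1.12 (limma adjusted p = 0.601), and it was -0.13 without old 1.

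COPZ1 (ENSSSCG00000000290), the paralogous host of miR-148b, had 21.9 and 19.5 CPM in the young and 16.01 and 14.8 CPM in the old. Both old livers were lower, with a log2 difference of -0.40 ± 0.13 as deposited (limma adjusted p = 0.315), which was -0.21 with TMM factors and -0.23 with median-of-ratios factors. SREBF2 (ENSSSCG00000026092), a master regulator of cholesterol synthesis and host of miR-33a, had 1.37 and 1.35 CPM in the young and 2.81 and 4.30 CPM in the old. Both old livers were higher, with a log2 difference of 0.93 ± 0.21 (limma adjusted p = 0.251), while the reads of miR-33a-5p lay on both sides of the young values.

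The pantothenate kinase genes, which start coenzyme A synthesis, showed no common order. PANK1, host of miR-107, had 25.1 and 26.8 CPM in the young and 25.3 and 15.2 CPM in the old, and PANK3, host of a miR-103 gene, had 6.15, 3.77, 6.48 and 4.14 CPM, both overlapping. PANK2, which holds the other miR-103 gene, was higher in both old livers at 1.38 and 1.34 CPM against 0.762 and 0.890 (limma adjusted p = 0.302). PPARGC1B was at 0 in each young liver, against 0.146 and 0.139 CPM in the old, too low to be set against miR-378. RefSeq places another miR-378 gene within BCAS3, which was not on the host list and was not examined. In all, 1 of the 7 hosts was lower in both old livers, against 25% of all tested mRNAs, and 3 were higher in both, against 24.4%.

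Genes known as targets of the 5 families were read from a list of 22, of which 20 were matched and tested. None was called, 7 were lower in both old livers, against 25% of all tested mRNAs, and 3 were higher in both, against 24.4%. After median-of-ratios scaling of the mRNA libraries, 6 of the 20 were lower, against 19.5% of all mRNAs, and 3 were higher, against 28.6%, and DICER1 was the gene that then overlapped. The median log2 difference of the 20 was -0.22 as deposited, against -0.02 for all tested mRNAs, and -0.11 with TMM factors, against 0.04. The CPM values below are as deposited. Hepatocyte markers were also lower in the old livers in sum as deposited, beside a lower sum over all mRNAs, as given above. The part of this in the target values was not tested.

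Of 10 miR-33 targets, 4 were lower in both old livers and 2 were higher on either scale, beside the shares of all mRNAs given above. HADHB (ENSSSCG00000008569), a subunit of the mitochondrial trifunctional enzyme of fatty acid oxidation, had 20.3 and 24.6 CPM in the young and 11.6 and 9.61 CPM in the old, a log2 difference of -1.01 ± 0.18 (limma adjusted p = 0.223). CROT, which moves fatty acyl groups out of peroxisomes, had 26.9 and 32.5 CPM against 17.7 and 21.5. ABCB11, the bile salt export pump, had 55.4 and 61.3 CPM against 9.002 and 30.5, and ATP8B1, a phospholipid flippase of the bile canaliculus, had 6.42 and 4.33 against 3.59 and 2.73. All 4 were lower in both old livers, and the other 3 had limma adjusted p of 0.306, 0.361 and 0.381.

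The cholesterol exporters did not move together. ABCG1 was higher in both old livers at 0.699 and 0.682 CPM against 0.196 and 0.104, and so was NPC1, which releases cholesterol from lysosomes, at 1.35 and 1.11 CPM against 0.479 and 0.566 (limma adjusted p = 0.239 and 0.251). ABCA1, a target listed for miR-33, miR-148 and miR-27 alike, overlapped at 8.07, 7.27, 9.05 and 5.99 CPM, with a log2 difference of -0.05. CPT1A, the entry enzyme of mitochondrial fatty acid oxidation, had 30.3, 10.005, 13.4 and 10.3 CPM and overlapped as well.

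For miR-148 and miR-152, none of 4 targets was lower and 1 was higher in both old livers. The 1 higher gene was DNMT1, a DNA methyltransferase, at 1.17 and 1.13 CPM against 0.980 and 0.578 (limma adjusted p = 0.518). Among 4 miR-27 targets, 1 was lower in both old livers. This was GPAM, the first enzyme of glycerolipid synthesis, with 14.7 and 18.3 CPM in the young and 6.83 and 9.38 in the old (limma adjusted p = 0.255).

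The remaining families had few targets. Of 3 for miR-378, PIK3CA, a catalytic subunit of PI3 kinase, was lower in both old livers at 0.796 and 0.794 CPM against 2.17 and 1.57 (limma adjusted p = 0.255), while MED13 (8.03, 5.00, 9.31 and 4.09 CPM) and CRAT (8.84, 7.58, 5.80 and 10.25 CPM), the mitochondrial carnitine acetyltransferase, overlapped. Of 2 for miR-103 and miR-107, DICER1, the enzyme that cuts miRNA precursors, was lower in both old livers, as deposited only, at 0.926 and 1.46 CPM against 1.86 and 1.55 (limma adjusted p = 0.525), and CAV1, the caveolin of the cell membrane, overlapped at 0.784, 1.93, 1.56 and 1.99 CPM.

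**Figure D4:**
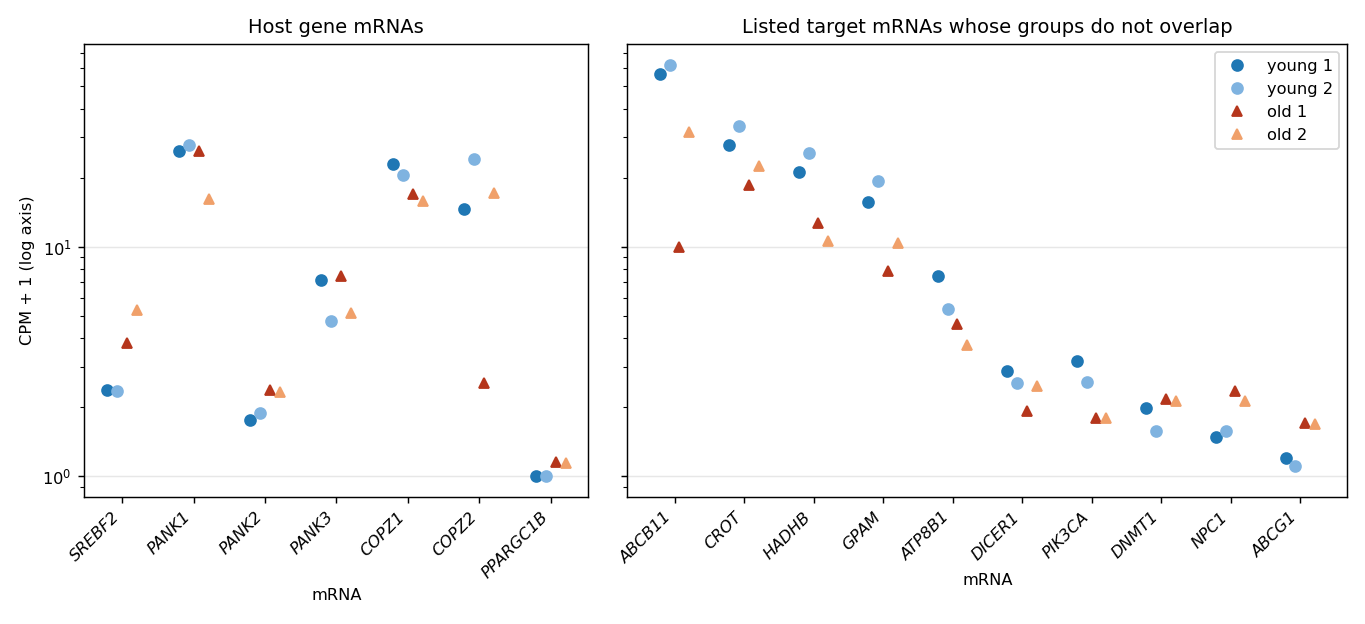
Deposited CPM plus 1 (log axis) of the 7 host gene mRNAs (left) and of the 10 listed target mRNAs whose young and old values do not overlap (right), 1 point per library, circles young and triangles old. SREBF2 is higher and COPZ1 lower in both old livers, the low COPZ2 value is that of old 1 alone, and 7 of the 10 targets lie lower in both old livers. None passed the limma threshold.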

How the data were processed

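Small RNA and rRNA-depleted RNA libraries were made from the livers of 2 young and 2 old sows. The miRNA signal values were made by the authors with mirdeep2 against miRBase and named TPM; as deposited, a library's values are all multiples of 1 step, the worth of a read, and the total behind the step is not given in the sources used here. The mRNA values act as CPM made by the authors, who aligned reads to Sscrofa10.2 with TopHat2 2.0.14, assembled them with StringTie 1.2.3 and quantified them with Salmon 0.6.0, per the labels and methods; as deposited they hold whole reads times 1 step with no gene length. In both, 100% of values above 0 came out as whole reads, within a tolerance of 0.0011 in units of the deposited values. For the mRNA values, where a read is worth 0.0109 to 0.0162, this tolerance is a larger part of a read than for the miRNA values. Replicates were not pooled.

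Names or genes above 0 in at least 2 of 4 libraries were tested with limma 3.58.1 (R 4.3.3) on log2(value + 1), which understates the change of low values, with Benjamini-Hochberg adjustment over all of them. The limma variances were moderated, that is, drawn toward a value common to all tested names. A call required an adjusted p under 0.05 and a log2 difference beyond 1. edgeR 4.0.16 exact and quasi-likelihood tests on the recovered reads, other pseudocounts, filters and scalings, a mean-variance trend, a replicate block and leaving out each library were alternatives, and the code was tested on simulated data. Single values and ratios were compared by exact two-sided permutation (scipy 1.17.1). Of 21607 mRNA IDs, 11654 had a symbol.

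All 14 names were described, with the other names of their families and clusters and, for the most abundant name of each family, the 3 nearest profiles by Euclidean distance of centred log2 values. All matched hosts were named, and of the targets the most abundant and every one without overlap between the ages. Names and lists (hosts, targets and markers of hepatocytes, muscle, erythroid cells, macrophages, stellate cells and endothelium) were chosen with earlier results of these data known. Long noncoding and circular RNA tables were not used. Some listed targets are not reported here and were left out of the counts.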

Additional observations from a re-analysis of the deposited data

How the results depend on the processing

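The number of miRNA names called, 0 with limma, was 26 with the edgeR exact test, 18 with a mean of at least 10, 7 with a mean-variance trend and 0 to 36 when 1 library was left out (22 without old 1 and 36 without old 2, where the lone old library is assumed to vary like the young), while on median-of-ratios values 0 were called whichever library was left out. Of the 14 names, 0 to 1 was called when a library was left out, the 1 being miR-33b-3p, on deposited values only. Those lower in both old livers numbered 5 as deposited and 8 with TMM or median-of-ratios factors. With the replicate number as a block 0 miRNA names and 0 host or target mRNAs were called. Same-numbered sows are unrelated, the correlation of their deviations was -0.02, and the block changed no call.

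Outside the leave-out fits, 12 of 180 member values changed sign. miR-107 was -0.0084 with TMM and -0.00050 with both edgeR tests. miR-33a-5p was 0.12 with both edgeR tests and 0.0076 with a pseudocount of 10. miR-27b-3p was -0.16 with TMM and both edgeR tests, -0.12 with median-of-ratios factors, with or without the replicate block, and -0.016 with equal sums. The sum of miR-27a and miR-27b was -0.11 with median-of-ratios factors and -0.0094 with equal sums. Leaving out 1 library, over deposited and scaled values together, moved miR-148a-3p from -1.44 to 0.14, miR-148b-3p from -1.15 to 0.089 and miR-148b-5p from -0.55 to 0.34. It moved miR-107 from -0.12 to 0.51, miR-378 from -0.051 to 0.51 and miR-27b-3p from -0.30 to 0.38. For miR-33a-5p the range was -1.61 to 1.07 and for miR-33b-5p -0.91 to 0.39. On scaled values alone, miR-148a-3p (-1.44 to -0.14), miR-148b-3p (-1.06 to -0.40) and miR-27b-3p (-0.21 to -0.059) kept 1 sign. On that scale miR-378 ran from -0.0068 to 0.15, and it, miR-148b-5p, miR-107, miR-33a-5p and miR-33b-5p took both signs. The sums, left out on deposited values only, ranged from -1.37 to 0.045 for miR-148 with miR-152 and -0.43 to 0.081 for miR-103a and miR-107. They ranged from -0.30 to 0.39 for miR-27 and -0.98 to 0.65 for miR-33. As deposited, the median of all tested names was 0.42 without young 1 and -0.12 without young 2. On scaled values it was -0.03 in both cases. The cause of the sign changes was not tested. miR-152-3p stayed between -1.40 and -0.47 and miR-152-5p between -1.58 and -1.03 in all 21 alternatives. Leave-out and block fits on median-of-ratios values were added after the data were seen, as were the mRNA orders on that scale and the counts of names lower in both old livers on other scalings.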
